A study of Mus musculus with 21 samples.

Results

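The circadian clock genes described here are Arntl, Clock, Per1, Per2, Per3, Cry1, Cry2, Nr1d1, Nr1d2 and Dbp. They were taken as the non-control array probes annotated with one of these 10 gene symbols. All 10 genes were measured, by 14 probes, among 23590 genes tested. Gene expression had been profiled with 21 one-colour Agilent mouse arrays on liver and liver tumours of 18 mice, all on a C57BL/6J background. Untreated Trp53 wt liver (WT liver) came from 4 mice, and untreated Trp53 ko liver (KO liver) from 4 mice. DEN tumours were 7 tumours of 5 Trp53 wt mice that had received the carcinogen N-nitrosodiethylamine (DEN), injected into the peritoneal cavity on day 15 at 10 µg per g of body weight, and they are labelled hepatocellular carcinoma (HCC). KO tumours were 6 tumours of 5 untreated Trp53 ko mice, labelled HCC/CCC, where CCC stands for cholangiocellular carcinoma. Trp53 encodes the tumour suppressor p53. The labels do not state in which cells Trp53 was deleted, the sex and age of the mice, or the time of day at which tissue was taken. Tissue was not collected as a time series, so a clock gene that stands high or low in a mouse carries both its average expression and the phase at which that mouse was sampled, and these cannot be told apart.

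As background, the mammalian clock is a feedback loop of transcription that runs in nearly every cell, hepatocytes included. ARNTL (also called BMAL1) and CLOCK pair up, bind E-box sequences and switch on the Per and Cry genes, whose proteins return to the nucleus and block that pair. The same pair switches on Nr1d1 and Nr1d2, which encode the repressors REV-ERBα and REV-ERBβ of Arntl, and Dbp, which encodes a transcription factor that binds D-box sequences in clock output genes. In mouse liver the messenger RNAs of Arntl and Dbp peak at opposite times of day, and Nr1d1, Dbp, Per1, Per2 and Per3 swing widely over the day, while Clock changes little.

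The promoters that hold an element through which the loop is known to act are shown first, with that of Dbp, the member with the largest difference between each tumour group and its liver, whose window holds none. Each line gives the 250 bases before the transcription start, 5′ to 3′ on the coding strand, from RefSeq on GRCm38.p6. Capitals mark matches, on either strand, to the E-box CACGTG, to its variant, spelled CACGTT, or to the D-box forms TTATGTAA and TTACGTAA.
Nr1d1, chr11:98775378-98775627, minus strand: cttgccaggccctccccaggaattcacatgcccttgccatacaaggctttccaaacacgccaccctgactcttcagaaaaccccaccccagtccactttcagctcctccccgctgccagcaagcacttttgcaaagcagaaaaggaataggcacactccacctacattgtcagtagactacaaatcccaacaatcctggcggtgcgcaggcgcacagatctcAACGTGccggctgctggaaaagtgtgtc
Cry2, chr2:92434070-92434319, minus strand: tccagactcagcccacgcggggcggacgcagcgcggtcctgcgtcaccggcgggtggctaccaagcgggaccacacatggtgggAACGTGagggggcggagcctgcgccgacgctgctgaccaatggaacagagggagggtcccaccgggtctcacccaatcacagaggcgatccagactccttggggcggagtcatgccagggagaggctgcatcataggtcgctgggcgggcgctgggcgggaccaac
Cry1, chr10:85185055-85185304, minus strand: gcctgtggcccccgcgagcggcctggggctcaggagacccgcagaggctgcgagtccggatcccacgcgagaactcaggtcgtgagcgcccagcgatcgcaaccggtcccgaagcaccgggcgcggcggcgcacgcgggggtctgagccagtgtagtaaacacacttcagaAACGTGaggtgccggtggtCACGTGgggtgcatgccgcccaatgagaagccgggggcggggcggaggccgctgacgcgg
Per1, chr11:69098699-69098948, plus strand: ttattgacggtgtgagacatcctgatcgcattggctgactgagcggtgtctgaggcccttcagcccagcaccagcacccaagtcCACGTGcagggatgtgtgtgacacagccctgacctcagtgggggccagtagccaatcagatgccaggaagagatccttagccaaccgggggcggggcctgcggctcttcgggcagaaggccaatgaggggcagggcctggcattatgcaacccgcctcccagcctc
Per3, chr4:151044666-151044915, minus strand: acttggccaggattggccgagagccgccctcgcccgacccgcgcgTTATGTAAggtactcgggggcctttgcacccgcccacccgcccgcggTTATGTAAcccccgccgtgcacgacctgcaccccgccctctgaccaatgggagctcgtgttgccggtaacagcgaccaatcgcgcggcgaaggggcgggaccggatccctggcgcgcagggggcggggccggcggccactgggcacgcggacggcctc
Dbp, chr7:45704997-45705246, plus strand: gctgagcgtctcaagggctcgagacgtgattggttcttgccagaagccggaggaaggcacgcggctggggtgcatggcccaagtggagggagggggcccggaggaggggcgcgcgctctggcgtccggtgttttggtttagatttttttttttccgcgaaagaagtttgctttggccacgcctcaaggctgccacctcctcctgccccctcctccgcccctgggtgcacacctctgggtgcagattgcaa

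The RefSeq table held windows for 9 of the 10 genes, 13 windows in all. The Nr1d1 window carried the variant E-box 28 bases before the start. The Cry2 window carried it 166 bases before the start. Cry1 had an E-box 60 bases and the variant 79 bases before its start. Per1 had an E-box at 166 bases in the upstream one of its 2 windows. Per3 held 2 D-boxes, at 205 and 158 bases. The E-box and its variant are not rare by themselves: of 32851 mouse promoter windows of this length, 6.02% held the E-box and 3.85% the variant. A D-box was less common, in 0.931% of the windows, and 0.0213% held at least 2 D-boxes. No window of Arntl, Clock, Dbp or Nr1d2 held any of these motifs. The core TAGGTCA of the element bound by REV-ERB proteins was in none of the members' windows and in 2.23% of all windows. The matches describe letters in these windows only. The array probes lie, per the files, at chr7:52965322-52965381 for Dbp, chr7:120457261-120457320 for Arntl, chr11:98630526-98631028 for Nr1d1 and chr2:92243807-92243866 for Cry2 on mm9.

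Array brightness differed, with the 75th percentile of intensity from 476 to 4258 and 51.2% to 82.5% of probes well above background, so each level below is the log2 of a probe's processed signal relative to that percentile on the same array. Arrays lay on 6 slides scanned on 4 days. No slide held arrays of 2 groups, so no difference between groups can be told apart from slide. No other group shared the scan day of the WT livers, so a difference from WT liver cannot be told apart from day either. KO livers had a slide to themselves and shared their scan day with KO tumours 1 to 3. KO tumours 4 to 6 were on the brightest slide. Trp53 itself averaged -3.57 ± 0.26 (SD, n = 4) in WT liver, -5.57 ± 0.75 (n = 4) in KO liver, -2.65 ± 0.11 (n = 5 mice) in DEN tumours and -4.71 ± 0.47 (n = 5 mice) in KO tumours, lower in both Trp53 ko groups than in both Trp53 wt groups, as labelled. The files do not say whether its probe lies in the deleted part. The 2 liver groups were the control for 1 tumour group each, and each tumour group also enters the comparison of the tumours, so the comparisons share samples.

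In liver without tumour the Dbp level was nearly the same in every mouse, and in tumours it was not. Dbp measured 6.16, 6.28, 6.11 and 6.21 across WT livers, while KO livers had 6.33, 6.15, 6.28 and 6.42. In the 5 mice with DEN tumours it measured 4.06, 2.13, -0.01, 5.90 and 5.87. In the 5 mice with KO tumours it measured 2.77, 2.27, 1.45, 4.80 and 0.84. Every tumour-bearing mouse lay below every liver, but DEN mice 4 and 5 came close to the livers, whereas DEN mouse 3 lay farthest below them. The SD over mice was 0.07 in WT liver and 0.11 in KO liver, against 2.54 in DEN tumours and 1.52 in KO tumours. Of all genes tested, 99.7% varied less than Dbp among the DEN mice, and 1.45% varied less among the WT livers.

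Arntl, the activator whose messenger RNA runs opposite to Dbp in normal liver, was high where Dbp was low. It measured -2.93, -3.48, -3.84 and -3.12 in WT liver and -4.76, -2.97, -2.96 and -3.65 in KO liver. In DEN mice it measured 0.12, 0.21, 0.66, -4.11 and -3.03. In KO tumour mice it measured -0.68, -0.94, -0.33, -2.17 and -0.38. All 5 KO tumour mice and DEN mice 1, 2 and 3 lay above all 8 livers, while DEN mice 4 and 5 lay inside the range of the livers. Arntl varied more among the DEN mice than 99.4% of genes did (SD 2.18). DEN mouse 1 was on slide 1, mice 2 and 3 were on slide 2, and mice 4 and 5 had 1 tumour on each; the part of the slide in these levels was not tested.

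**Figure D1:**
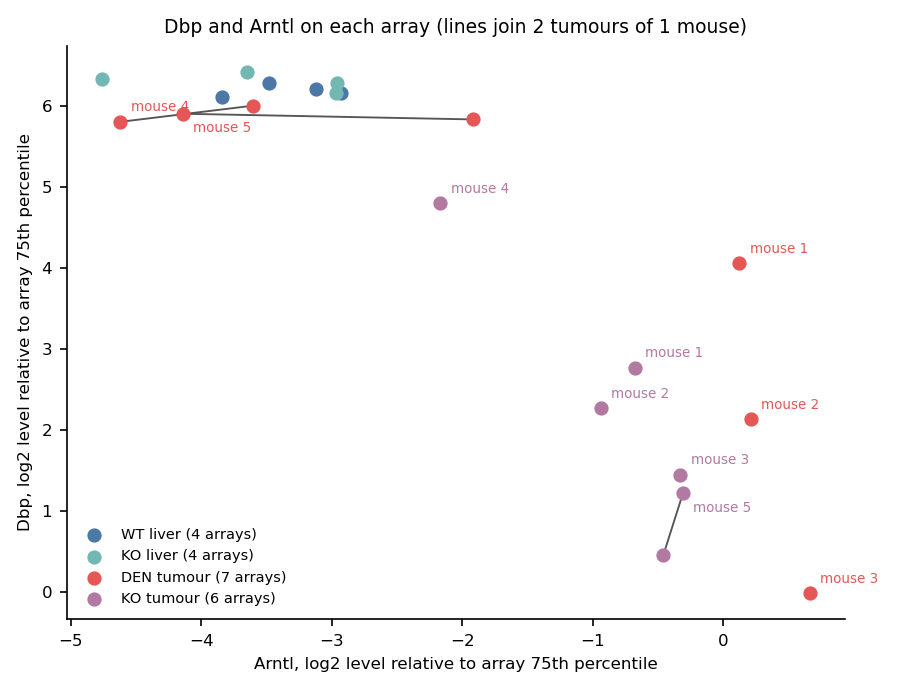
Log2 level of Dbp (vertical) against Arntl (horizontal), each relative to the array's 75th percentile, 1 point per array, coloured by group, with lines joining the 2 tumours of 1 mouse. The 8 livers sit together at high Dbp and low Arntl; tumours run from there to low Dbp and high Arntl, and both tumours of DEN mouse 4 and of DEN mouse 5 lie at the liver end for Dbp.

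Clock, the partner of ARNTL, differed little between groups. Its group means were 0.15 ± 0.40 in WT liver, 0.32 ± 0.23 in KO liver, 0.07 ± 0.53 in DEN tumours and 0.26 ± 0.22 in KO tumours (SD, n = 4, 4, 5 and 5 mice). The ranges of all 4 groups overlapped.

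Of the repressors of the REV-ERB family, Nr1d1 fell in both tumour types and Nr1d2 in KO tumours, by the tests given below. Nr1d1 measured 0.79, 0.97, 0.63 and 0.51 in WT liver and -0.18, 0.43, 0.59 and -0.30 in KO liver. In DEN mice Nr1d1 measured -0.64, -2.24, -1.91, -0.98 and -0.84, all below every WT liver. In KO tumour mice it measured -2.02, -2.69, -2.40, -0.21 and -3.08, with only mouse 4 reaching the KO livers. Nr1d2 averaged 2.98 ± 0.58 in WT liver, 3.45 ± 0.16 in KO liver, 1.90 ± 0.98 in DEN tumours and 1.30 ± 1.33 in KO tumours. KO tumour mouse 4, at 3.48, and DEN mice 4 and 5, at 2.74 and 2.82, were the tumour-bearing mice with the highest Nr1d2. The files place the main Nr1d2 probe on chromosome 19 (mm9), while the gene lies on chromosome 14. A second probe on chromosome 14 differed by -2.14 (SE 0.52, limma adjusted p = 0.0026) between KO tumours and KO liver, close to the value of the main probe given below.

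Among the Cry genes, whose proteins are the main inhibitors of the CLOCK pair, the main Cry2 probe separated each tumour group from its own liver group. Cry1 did not. Cry2 measured 4.56, 4.73, 3.35 and 3.39 in WT liver and 4.38, 4.57, 4.54 and 4.58 in KO liver. In DEN mice it measured 2.90, 2.72, 1.90, 2.58 and 2.61, and in KO tumour mice 1.07, 2.37, 0.96, 3.84 and 2.57. Each tumour group lay wholly below its own liver group, but KO tumour mouse 4, at 3.84, lay above the WT livers at 3.35 and 3.39. On a second Cry2 probe DEN tumours (-2.36 to -1.63) overlapped WT livers (-2.35 to -1.11). KO tumours (-3.78 to -2.28) lay below KO livers (-1.81 to -1.52) on that probe. Cry1 was dim, with a signal clearly over background on 2 of 4 arrays in each liver group, on 7 of 7 with DEN tumours and on 4 of 6 with KO tumours, and its groups overlapped, at -5.17 ± 0.77, -4.50 ± 1.64, -4.44 ± 1.05 and -6.07 ± 0.96.

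The Per genes, which encode the partners of the CRY proteins in repression, did not move as 1 group. Per2 measured -1.92, -1.16, -0.68 and -1.35 in WT liver and -1.03, -1.50, -2.31 and -1.19 in KO liver. In DEN mice it measured -2.72, -1.89, -3.29, -1.09 and -1.27, and in KO tumour mice -4.02, -3.03, -3.79, -1.69 and -2.96. The values of KO tumour mice 1, 2, 3 and 5 were below every KO liver, and the lowest DEN value was again that of mouse 3. Per1 averaged 3.15 ± 0.27 in WT liver, 3.71 ± 0.61 in KO liver, 3.44 ± 1.44 in DEN tumours and 2.82 ± 0.72 in KO tumours. On this main probe DEN mouse 3 had 0.94 for Per1, against 3.51 to 4.36 in the other 4 DEN mice. A second, dimmer Per1 probe ran only from -4.96 to -3.46 over the DEN mice. Per3 was at the edge of detection, detected over background on 3 of 4 arrays of WT liver, on 0 of 4 of KO liver, on 5 of 7 with DEN tumours and on 2 of 6 with KO tumours, with means of -4.36 ± 0.41, -4.78 ± 0.20, -4.81 ± 0.80 and -7.03 ± 1.31.

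**Figure D2:**
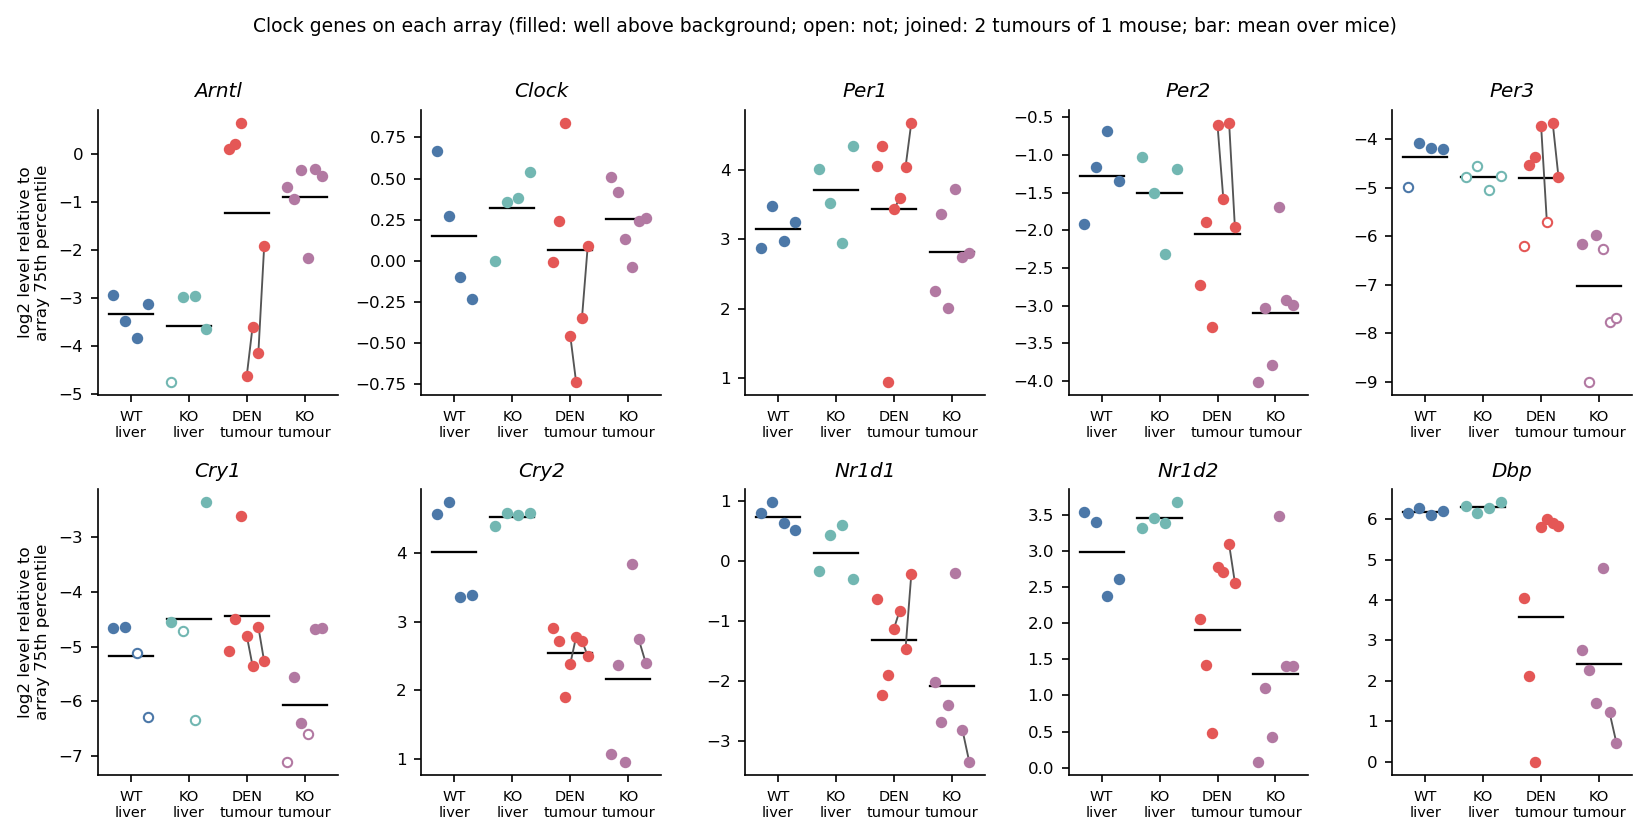
Log2 level of the 10 clock genes, relative to each array's 75th percentile, in WT liver, KO liver, DEN tumours and KO tumours, 1 panel per gene. Each point is an array, filled where the probe was well above background and open where it was not; lines join 2 tumours of 1 mouse and bars are means over mice. Dbp is tight in both liver groups (SD 0.07 and 0.11) and spread in tumours (SD 2.54 and 1.52), while the means of Clock lie between 0.07 and 0.32.

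Between KO tumours and KO liver, 7 of the 10 clock genes passed the test, limma with Benjamini-Hochberg adjustment over all genes, 1 higher and 6 lower. The background was large: 51.1% of all genes passed in this comparison, 21.5% higher and 29.6% lower. Arntl rose 6.43-fold (log2 2.69, SE 0.81, adjusted p = 0.011). Dbp fell 14.6-fold, the largest change of the 10 (log2 -3.87, SE 0.98, adjusted p = 0.0034). Cry2 fell 5.12-fold (-2.36, SE 0.48, adjusted p = 0.00057) and Nr1d1 4.64-fold (-2.21, SE 0.47, adjusted p = 0.00086). Nr1d2 fell 4.46-fold (-2.16, SE 0.58, adjusted p = 0.0052) and Per2 3.01-fold (-1.59, SE 0.50, adjusted p = 0.013). Per3 also passed (adjusted p = 0.0021), but no KO liver array had it well above background, so no fold is given. The KO tumour arrays with Per3 well above background read -6.15 and -5.98, below the KO liver arrays at -5.04 to -4.55. The lower reading of Per3 thus does not show less of its RNA.
Cry1 at -1.57 (95% interval -3.06 to -0.08, adjusted p = 0.073), Per1 at -0.89 (-2.10 to 0.32, adjusted p = 0.21) and Clock at -0.06 (-0.61 to 0.48, adjusted p = 0.85) did not pass. The groups did not overlap for 4 members, Arntl, Per3, Cry2 and Dbp, which was so for 42.7% of all genes. The median log2 difference was -1.88 over the 10 members and -0.22 over all genes. On the only scan day that held both groups, with KO tumours 1 to 3 against the 4 KO livers, 8 members passed, with Dbp at -4.13 (adjusted p = 7e-05) and Arntl at 2.94 (adjusted p = 0.0098). Over all genes, 12978 of 23590 passed on that day, 5846 higher and 7132 lower, and the groups were still on different slides. When slide entered as a random block, 3 members passed, Per3, Cry2 and Nr1d1, and Arntl (2.77, adjusted p = 0.20) and Dbp (-4.13, adjusted p = 0.073) did not. Of all genes, 6670 passed with that block.

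Markers of cell types changed in the same comparison. All 7 hepatocyte markers were lower in KO tumours than in KO liver and 5 of 6 bile duct markers were higher, in keeping with the label HCC/CCC, and 5 of 6 cell cycle genes and 4 of 5 stellate cell genes were higher. Relative to the mean of the livers, the mean hepatocyte marker level was -5.70, -4.48, -3.99, -2.61 and -2.84 in KO tumour mice 1 to 5, against -0.21 to 0.14 in the livers. The mean bile duct marker level was 5.27, 4.72, 5.42, 2.64 and 3.80, against -0.35 to 0.60 in the livers, where the defining marker Krt7 was above background on 0 of 4 KO liver and 1 of 4 WT liver arrays. KO tumour mouse 4, with the least change in both lists, had the highest Dbp, Cry2, Nr1d1 and Nr1d2 of its group, but mouse 5, with nearly the same hepatocyte value, had the lowest Dbp and Nr1d1. These mice also differed in other markers: mice 4 and 5 had mean levels of -0.79 and 2.28 for macrophage, -0.32 and 3.32 for neutrophil and 1.39 and 3.99 for B and plasma cell markers. Erythroid genes were between -4.51 and -2.29 in all KO tumour mice. In whole tissue, fewer cells of a type and less RNA per cell cannot be told apart, and the part of cell composition in the clock gene differences was not tested.

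Between DEN tumours and WT liver, 2 of the 10 clock genes passed, both lower, where 21.5% of all genes passed, 10.5% higher and 10.9% lower. Nr1d1 fell 4.13-fold (log2 -2.05, SE 0.47, limma adjusted p = 0.0052). Cry2 fell 2.76-fold (log2 -1.47, SE 0.48, adjusted p = 0.037). The second Cry2 probe, over background on 21 of 21 arrays, read -0.58 here (adjusted p = 0.19) and -1.0 (adjusted p = 0.011) in KO tumours against KO liver, so the Cry2 call in DEN tumours holds for 1 of 2 probes. Dbp at -2.60 (95% interval -4.67 to -0.52, adjusted p = 0.070) and Arntl at 2.11 (0.40 to 3.83, adjusted p = 0.075) missed the threshold with wide intervals. Nr1d2 differed by -1.08 (adjusted p = 0.21), Per2 by -0.77 (0.30), Per3 by -0.45 (0.61), Cry1 by 0.73 (0.52), Per1 by 0.30 (0.77) and Clock by -0.09 (0.85). On the main probes Cry2, Nr1d1 and Dbp did not overlap between the groups, against 24.0% of all genes. The median was -0.61 over the members and 0.04 over all genes. Of 7 hepatocyte markers 1 was lower in this comparison, and the mean hepatocyte marker level was -1.08, -1.49, -1.49, -0.67 and -1.02 in DEN mice 1 to 5. Over the same mice the mean level ran from 0.56 to 2.13 for cell cycle, from 0.19 to 1.56 for T and NK cell, from 0.36 to 3.18 for neutrophil (highest in mouse 1) and from -1.0 to 2.58 for stellate cell markers, and their part in the clock gene differences was not tested.
The call of Cry2 was lost when DEN mouse 2, 3, 4 or 5 or WT liver mouse 1 or 2 was left out (-1.51 to -1.23, adjusted p = 0.054 to 0.12). Without DEN mouse 4, Arntl (2.83, adjusted p = 0.0073) and Dbp (-3.18, adjusted p = 0.029) passed, and without DEN mouse 5 they passed as well (2.56, adjusted p = 0.040 and -3.17, adjusted p = 0.034). When slide entered as a random block, no member passed, with Nr1d1 at -1.87 (adjusted p = 0.23), Cry2 at -1.44 (adjusted p = 0.30) and 2 members under an unadjusted 0.05.

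**Figure D3:**
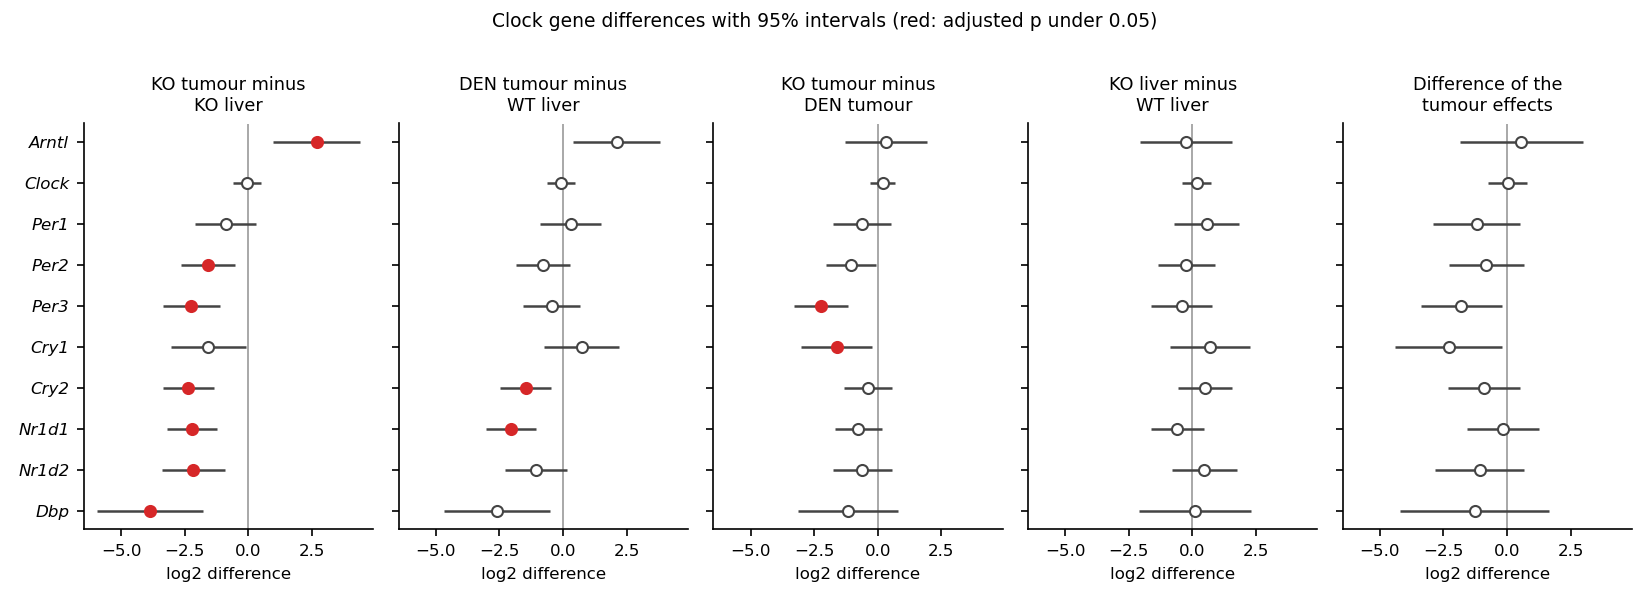
Log2 difference of each clock gene in the 5 comparisons, with 95% intervals from limma; red marks an adjusted p under 0.05. KO tumours against KO liver have 7 red genes, DEN tumours against WT liver 2 and KO against DEN tumours 2, and the comparison of the livers and the difference of the tumour effects have 0.

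Compared directly, the dim probes of Per3 and Cry1 read lower in KO tumours than in DEN tumours. These 2 of 10 genes passed on their main probes, where 57.3% of all genes did, 19.8% higher and 37.4% lower. A second Per1 probe, over background on 7 of 7 DEN and 2 of 6 KO tumour arrays, read -2.18 (limma adjusted p = 0.00072). The second Cry2 probe read -0.69 (adjusted p = 0.049). Second probes of Nr1d2 (-0.90, adjusted p = 0.13) and Dbp (-1.12, adjusted p = 0.30) did not pass. Per3 differed by -2.22 on the log2 scale (SE 0.50, limma adjusted p = 0.0014) and Cry1 by -1.62 (SE 0.67, adjusted p = 0.047). Per3 was over background on 2 of 6 KO tumour arrays and Cry1 on 4 of 6, so these sizes rest in part on signal near background and no fold is given. The 75th percentile was 951 to 4258 on KO tumour arrays and 512 to 884 on DEN tumour arrays. A signal near background reads lower relative to a higher percentile, and the part of this in the 2 calls was not tested. The calls by themselves thus do not show less Per3 or Cry1 RNA. No member's groups were free of overlap, against 31.6% of all genes. Dbp differed by -1.16 (95% interval -3.12 to 0.79, adjusted p = 0.29) and Arntl by 0.33 (-1.29 to 1.95, adjusted p = 0.73), so neither passed with all mice in the fit. The median was -0.69 over the members and -0.33 over all genes.
This comparison turned on single mice. Cry1 lost its call in 7 of the 10 fits that left out 1 mouse. Without DEN mouse 3, Per1 (-1.24, adjusted p = 0.0084), Per2 (-1.36, adjusted p = 0.021) and Dbp (-2.06, adjusted p = 0.030) passed. Without KO tumour mouse 4, Per2 (-1.40, adjusted p = 0.012), Nr1d1 (-1.22, adjusted p = 0.0047) and Nr1d2 (-1.15, adjusted p = 0.031) passed. The scan day that held both groups kept DEN mice 1, 4 and 5, with 1 tumour each, and KO tumours 1 to 3, and so left out DEN mice 2 and 3 and KO tumour mouse 4. On that day 6 members were lower in KO tumours, Per1, Per2, Cry2, Nr1d1, Nr1d2 and Dbp, with Dbp at -3.13 (adjusted p = 0.00086). Over all genes, 11977 of 23590 were called on that day, 4852 higher and 7125 lower. Per3 (-1.49, adjusted p = 0.11) and Cry1 (-1.12, adjusted p = 0.28) were not called on that day.

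Between KO liver and WT liver no clock gene passed in limma, with an adjusted or an unadjusted p, where 8.44% of all genes were called, 1.82% higher and 6.63% lower. Dbp differed by 0.11 (95% interval -2.08 to 2.30, adjusted p = 0.96) and Arntl by -0.24 (adjusted p = 0.90). The intervals rest on the spread of all 4 groups and are wide for Dbp. The members with the largest differences were Cry1 at 0.68, Nr1d1 at -0.59 (SE 0.50, adjusted p = 0.52) and Per1 at 0.57 (adjusted p = 0.63). On these main probes the groups overlapped for all 10, while 28% of all genes had groups that did not overlap. The second Per1 probe had the opposite sign, at -0.94 (adjusted p = 0.29), and its groups did not overlap. It was over background on 2 of 4 WT liver and 0 of 4 KO liver arrays. The difference of the tumour effects, that of KO tumours over KO liver minus that of DEN tumours over WT liver, was called for none of the 10 members, with 2 under an unadjusted 0.05, and for 30.9% of all genes. Cry1 (-2.30, adjusted p = 0.090) and Per3 (-1.80, adjusted p = 0.081) came nearest. For Dbp it was -1.27 (SE 1.39, adjusted p = 0.51) and for Arntl 0.57 (SE 1.15, adjusted p = 0.73). The higher count of members called in KO tumours thus does not show that the tumour types differ.

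DEN mice 4 and 5 and KO tumour mouse 5 gave 2 tumours each, which share the animal and, as far as tissue was taken from a mouse at once, the time of day. In DEN mouse 4 the tumours had Dbp at 5.80 and 6.00 and Arntl at -4.62 and -3.60. In DEN mouse 5 they had Dbp at 5.90 and 5.83 and Arntl at -4.14 and -1.92. In KO tumour mouse 5 they had Dbp at 1.22 and 0.46 and Arntl at -0.31 and -0.46. For Dbp the tumours of KO tumour mouse 5 were 0.76 apart, while KO tumour mice ran from 0.84 to 4.80. Both DEN pairs lay near the livers for Dbp, and tumours of DEN mice 4 and 5 were as near each other as tumours of 1 mouse. The DEN pairs thus do not show whether tumours that share an animal are alike for Dbp. For Arntl the tumours of DEN mouse 5 were 2.22 apart, while the means of DEN mice 4 and 5 were -4.11 and -3.03. The median absolute difference over the 10 members was 0.35, 0.64 and 0.08 in these mice, in that order, beside 0.53, 0.58 and 0.24 over all genes. Between mice of a group, the same median ran from 0.16 to 2.23 among DEN mice and from 0.34 to 1.97 among KO tumour mice. Over all genes it ran from 0.27 to 0.59 and from 0.38 to 0.78. The pairs of DEN mice 4 and 5 were split over both slides and scan days, and the pair of KO tumour mouse 5 shared a slide. In both of these DEN mice the tumour on slide 1 had more Arntl and less Per2, Per3 and Cry1 than the tumour on slide 2, and slide was not separated from tumour here. The largest differences within a mouse were Per3 in DEN mouse 4 (1.98), a dim probe, and Arntl in DEN mouse 5 (2.22), which was 1.47 with normexp background correction and quantile scaling.

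Of 8 other core clock genes, 3 were called higher and 2 lower in KO tumours against KO liver, a share near that of all genes (51.1%). Arntl2, a paralogue of Arntl, rose by 2.95 (limma adjusted p = 1.6e-05), although its other 2 probes read 1.68 and -0.04. Timeless, which works mainly at replication forks, rose by 2.64 (adjusted p = 3.5e-07). Ciart, an E-box controlled repressor of the CLOCK pair, fell by 5.21 (adjusted p = 0.0009). Rora was lower (-1.78, adjusted p = 2.1e-06), although its other probe read 0.41, and Bhlhe41 was called higher with no KO liver array well above background and -1.25 on its other probe. In DEN tumours 2 were higher, Timeless (1.27, adjusted p = 0.0014) and Arntl2 (1.34, adjusted p = 0.027, other probes 0.53 and -0.16), and 1 lower, Bhlhe41 (-1.09, adjusted p = 0.029). Ciart in DEN mice measured -2.55, -1.60, -7.75, -1.29 and -0.32, with mouse 3 lowest, and did not pass (-2.34, adjusted p = 0.15).

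Tef and Hlf, relatives of Dbp that bind the same D-box, fell in both tumour types. Tef fell in KO tumours (-2.66, limma adjusted p = 0.0013) and in DEN tumours (-2.23, adjusted p = 0.013). Hlf fell in KO tumours (-4.11, adjusted p = 1.2e-05) and in DEN tumours (-1.63, adjusted p = 0.045), and its difference between the tumour effects passed (-2.48, adjusted p = 0.025). In DEN mice Tef measured 4.39, 4.01, 2.27, 5.80 and 5.24, against 6.24 to 6.95 in the livers, so the mouse with the least Dbp also had the least Tef. Usp2, which encodes a deubiquitinase, fell in DEN tumours (-4.76, SE 0.98, adjusted p = 0.0025) and in KO tumours (-4.62, adjusted p = 0.00089). In DEN mice Usp2 measured -3.30, -3.00, -6.60, 0.64 and -0.92, against 1.73 to 2.99 in the livers, and mice 4 and 5 were nearest to the livers. Tef and Usp2 are given by mouse because their values had been seen, so they are no separate support for this order of the mice. The order did not hold for every clock gene: Nr1d1 was highest in DEN mouse 1 (-0.64) and lowest in DEN mouse 2 (-2.24).

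Lists of clock output genes differed in how many members passed. Over all genes, 29.6% were called lower in KO tumours and 10.9% in DEN tumours. Of 9 genes counted as E-box outputs, 4 were lower and 1 higher in KO tumours (median -1.01), and 1 was lower in DEN tumours. Ppara, a nuclear receptor of fatty acid use, fell by 4.75 (adjusted p = 1.8e-05) in KO tumours, and Noct was higher (1.05, adjusted p = 0.0013) with its other probe at -2.53. Of 7 measured targets of DBP, TEF and HLF, 7 were lower in KO tumours (median -5.26) and 4 in DEN tumours. Of 10 genes counted as outputs of REV-ERB or ROR proteins, the latter the family of Rora, 7 were lower in KO tumours (median -2.77). Among them were Pck1 of gluconeogenesis (-4.86) and Cyp8b1 of bile acid synthesis, which was above background on 2 of 6 KO tumour arrays. In DEN tumours 3 were lower, Elovl3, Cyp8b1 and Cyp7b1 (-5.30). Elovl3 was above background on 3 of 7 DEN tumour arrays and Cyp8b1 on 4 of 7, so no size is given for them. The hepatocyte markers were lower in the same KO tumours. Of 9 glucocorticoid response genes, the receptor gene Nr3c1 among them, 7 were lower in KO tumours, Nr3c1 included. In DEN tumours 1 was higher and 1 lower, and the lower one was Nr3c1 (-0.52, adjusted p = 0.031). Of 8 measured heat shock and cold response genes, which follow daily body temperature, 0 passed in DEN tumours in limma, adjusted or unadjusted, and in KO tumours 2 were higher and 1 lower.

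**Figure D4:**
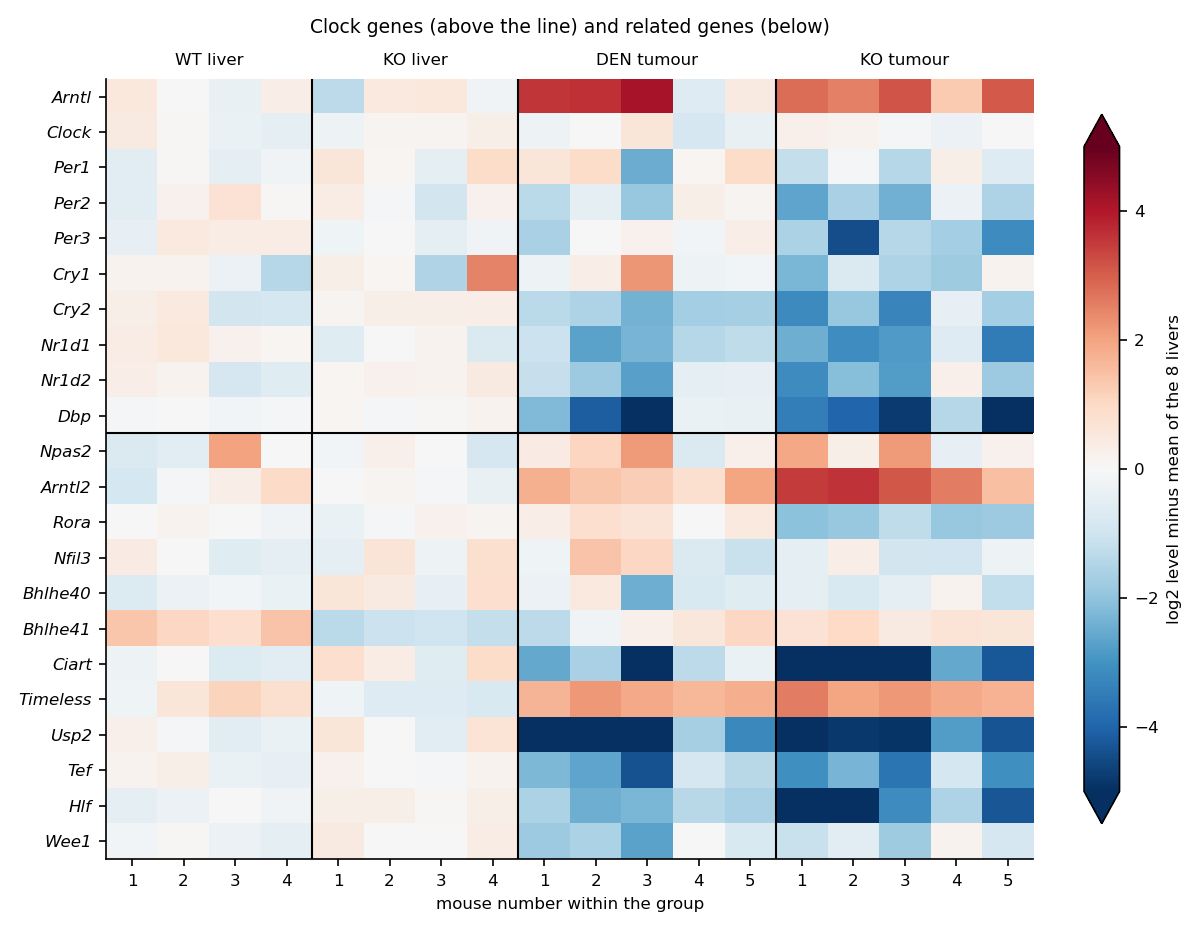
Log2 level of each gene (rows) in each of 18 mice (columns, by group) minus the mean of the 8 livers, with the 10 clock genes above the line and other clock genes below it; the colour scale ends at -5 and 5. Dbp, Tef, Usp2 and Ciart are low in tumours and, among DEN mice, lowest in mouse 3, and for these genes DEN mice 4 and 5 look most like the livers. Nr1d1 has another order, with DEN mouse 2 lowest.

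How genes varied together was described by the correlation of deviations from the group means over the 18 mice. The mice share arrays, slides and tissue composition within groups, and the values carry no test. For Dbp the highest were Pcsk4 (r = 0.929), Tef (0.915), Dedd2 (0.887), Exosc5 (0.874) and Riok2 (0.871), among 18122 genes. Of the other clock genes looked up, Usp2 (0.851), Ciart (0.787), Nr1d2 (0.755), Nr1d1 (0.732), Per2 (0.657) and Per1 (0.647) went with Dbp. Bhlhe40 (0.508), Hlf (0.479), Cry2 (0.399) and Per3 (0.0757) did so less. Arntl (-0.81), Nfil3 (-0.678), Clock (-0.67), Npas2 (-0.575) and Cry1 (-0.506) ran against Dbp. The lowest for Dbp were Zfp839 (-0.896), 1700010I14Rik (-0.889), Serpinb1b (-0.886), Gm9292 (-0.862) and Pigh (-0.86). Rank correlations with Dbp were closer to 0, at 0.672 for Tef, 0.554 for Riok2, 0.503 for Usp2, 0.509 for Ciart and -0.418 for Clock, while Pcsk4 had 0.833 and Nr1d1 0.763. For Arntl the highest were Mpzl1 (0.886), Asap2 (0.878), Ptpn9 (0.855), Ypel2 (0.847) and Loxl4 (0.846), and the lowest Hsd3b5 (-0.899), the clock output Wee1 (-0.869), Stk35 (-0.861), Usp2 (-0.851) and Ntm (-0.839). For Nr1d1 the highest were Pex16 (0.966), Rhbdd3 (0.917), Tns2 (0.915), A830052D11Rik (0.911) and Naprt (0.909), and the lowest Atp6ap1 (-0.955), Ccr1l1 (-0.908), Ankrd13a (-0.906), Gmeb2 (-0.882) and Usb1 (-0.873). No member of the 10 was among these nearest genes of another member.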

How the data were processed

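Total RNA was labelled with Cy3 and hybridised to Agilent Mouse 4x44K v2 arrays, per the labels' protocols. Spots were scanned and processed with Agilent Feature Extraction 10.7.3.1, per the file headers, which gave the deposited processed intensity and the background flags used here. The authors also deposited a table of log2 values, which on comparison with the scanner files were shifted by the 75th percentile and centred per probe on its median (lowest correlation with the own array 0.9997). They served as an alternative.

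From the intensities, log2 of the processed signal minus each array's 75th percentile was computed, outlier spots were dropped and spots of 1 probe averaged. A probe was kept if flagged well above background on 4 or more of 21 arrays (30482 of 39429), and the probe with the highest mean stood for its gene. Tumours of 1 mouse, read from the number in their titles, were averaged, and livers were taken as 1 per mouse. Nothing else in the labels says that samples are independent, so p-values measure only the spread between them.
Group means were fitted over all 4 groups with limma 3.58.1 (R 4.3.3), two-sided, with Benjamini-Hochberg adjustment over 23590 genes and a threshold of 0.05. Tested on simulated data with 200 changed genes, a log2 change of 2 was recovered in 65% to 71% and a change of 1 in 15% to 28.5% of genes across 4 comparisons. In that setting a change of 1 was mostly missed. Far more than 200 genes were called in the data, 1992 to 13508 in these comparisons. The threshold depends on that number, so the simulated shares need not hold for the data. The number of arrays limits the precision.
The members and gene lists were chosen with earlier results of these data known. All members are named in each comparison, and from each clock list up to 3 risen and 3 fallen genes of smallest adjusted p could be named. For Dbp, Nr1d1 and Arntl, the 5 highest and 5 lowest correlated genes are named. Usp2 and Tef by mouse, and Ciart in DEN tumours, were chosen after their values were seen. Alternatives covered background correction, scaling, probe filters, slide and scan day, array weights and leaving out each mouse. One gene of a related list is not reported here and was left out of its counts.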

Additional observations from a re-analysis of the deposited data

Results flagged for a closer look

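Within groups of 4 or 5 mice, 4 of 40 sets of clock gene levels held a mouse far from the others by Dixon's criterion at 95%, where chance gives about 1 in 20. Per1 in DEN mouse 3 was 0.94 on the main probe, against 3.51 to 4.36 in the other 4 mice. The second Per1 probe, which is dimmer, ran only from -4.96 to -3.46 over all 5 DEN mice and so held no gap of that size. Cry1 in DEN mouse 3 was -2.61, against -5.08 to -4.49, so that this mouse was low on the main Per1 probe and high for Cry1. Per3 was -6.2 in DEN mouse 1, against -4.72 to -4.22, and -4.98 in WT liver mouse 1, against -4.21 to -4.08, and its probe was not well above background on either of those arrays.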

How the results depend on the processing

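No paired analysis was possible because the replicate numbers were given in accession order and do not pair mice across groups. With slide as a random block (correlation 0.382), 6670 genes were called in KO tumours against KO liver (12065 without), 419 in DEN tumours against WT liver (5069), 11 between the livers (1992) and 798 for the difference of the tumour effects (7282), and 3, 0, 0 and 0 clock genes. In KO against DEN tumours, clock calls were 1 with no filter, with a filter on every array of a group, with normexp and quantile scaling, with median scaling or with the slide block, 3 with all probes of a gene averaged, 4 with every tumour as a sample, 5 with array weights, 3 with scan day as a block, and 6 on scan day 1 or without the brightest slide. Over all genes these settings called from 9156 (slide block) to 14554 (every tumour as a sample), against 13508 in the main fit. For the difference, clock calls were 1 with every tumour as a sample and 2 with array weights or without the brightest slide. Over all genes, 7613, 9627 and 9192 were called there, in that order. Between the livers, 4494 genes were called when only those groups were fitted and 5518 with array weights. Scan-day settings were not run for comparisons with WT liver, which was alone on its day. Leaving out 1 mouse gave 7 to 8 clock calls and 10686 to 12776 genes in KO tumours against KO liver, 1 to 3 and 3614 to 4922 in DEN tumours against WT liver, 1 to 4 and 12428 to 14069 in KO against DEN tumours, 0 to 1 and 5978 to 8575 for the difference, and 655 to 2080 genes between the livers.
Signs turned for members with no call. Clock in KO tumours against KO liver was 0.06 with median scaling, 0.04 with scan day as a block, on scan day 1 or without the brightest slide and 0.02 with array weights. Between the livers Arntl was 0.12 and Dbp -0.03 with normexp and quantile scaling, and Per1 -0.19 with probes averaged. For the difference, Arntl was -0.07 and Nr1d1 0.12 with normexp and quantile scaling. Leaving out 1 mouse gave Clock -0.28 to 0.08 in DEN tumours against WT liver and -0.17 to 0.01 in KO tumours against KO liver, Arntl -0.39 to 0.80 in KO against DEN tumours, Arntl -0.15 to 1.05, Clock -0.15 to 0.22 and Nr1d1 -0.63 to 0.08 for the difference, and Arntl -0.45 to 0.15, Cry1 -0.03 to 1.30 and Per2 -0.44 to 0.04 between the livers. The cause was not tested. Quantile scaling moved the median of all genes from -0.22 to -0.02 in KO tumours against KO liver and from -0.33 to -0.04 in KO against DEN tumours, and the share of calls that were lower from 57.9% to 49% and from 65.4% to 52.9%. Dim probes, Cry1 and Per3 among the members, carry the least precise values.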
